A study of Mus musculus with 24 samples.

Results

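Gene expression in the mouse heart on postnatal day 1 (P1) was compared with that before birth (E17.5) and in the adult, to ask which genes passed through a maximum or a minimum just after birth. The 6 gene-level heart arrays behind this comparison, 2 each from whole hearts of E17.5 embryos, P1 pups and adults, are among 24 deposited sets of values, which hold 12 RNA samples each measured at gene level and at exon level. The remaining samples were cultured cells, namely ES cells, embryonic bodies and cardiac bodies made from them, and the series was made to follow gene expression and splicing while the heart and cardiomyocytes develop. The labels give no genotype, strain, sex or treatment for any heart and no age in days for the adults. They also do not say whether the replicates of a stage were separate animals, separate litters or pools, so the spread between them may be technical. The p-values and standard errors below rest on a spread pooled, gene by gene, over the replicate pairs of all groups, cultures included. The P1 pair differed most, with an SD of the difference over genes of 0.49, against 0.27 for E17.5 and 0.36 for adult. The pooled spread can therefore be too small for P1. In whole tissue, fewer cells of a type and less RNA per cell cannot be told apart.

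Birth changes the work and the fuel of the heart. The fetal heart runs mainly on glucose and lactate in a poorly oxygenated circulation, while suckling brings a milk diet rich in fat and the blood carries more fatty acids and more oxygen. Fatty acids enter mitochondria through the carnitine shuttle and are then shortened by β-oxidation, and many genes of this route are targets of the PPAR and ERR nuclear receptors. In the same days the last rounds of cardiomyocyte division take place, the great arteries and valves lay down elastic matrix, and contractile proteins exchange their fetal for their adult forms.

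For each of 19920 genes, the P1 difference was the P1 mean minus the midpoint of the E17.5 and adult means, on the log2 scale of the deposited signals. A gene was called a peak or a dip when this difference had an adjusted p under 0.05 (limma, Benjamini-Hochberg over all genes) and P1 lay on the same side of both other stages. A stricter call asked for P1 minus E17.5 and P1 minus adult to pass at the same threshold one by one.

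The P1 pair was the least alike of the heart pairs. Across genes, which are not independent replicates, its arrays correlated at r = 0.971, against 0.992 for the E17.5 pair and 0.984 for the adult pair. P1 replicate 1 was closer to the E17.5 arrays, at r = 0.980 and 0.978, than to its own replicate. A gap of over 1 between the P1 arrays was found in 991 genes with replicate 1 on top and in 85 with replicate 2 on top. The 991 genes were represented by a median of 17 exon-level probe sets, against 8 for all genes and 4 for the 85. Stag2, which encodes a cohesin subunit, was the largest of these gaps, with 8.51 in replicate 1 and 5.85 in replicate 2. Gpnmb, a gene of macrophages and pigment cells, was the largest the other way, with 5.11 and 7.74. Of the 991 genes 116 were called dips and 2 were called peaks. Whether the state of the RNA in P1 replicate 2 had a part in those dips was not tested, and counts of calls are therefore given with both P1 arrays and, as "kept", for calls that were made again in the fit without replicate 1 and in the fit without replicate 2. A gene named as a peak or a dip was kept unless stated otherwise. In such a fit the remaining P1 array is assumed to vary like the other groups.

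One adult array also stood apart. Myl2, the ventricular myosin light chain, was between 12.06 and 13.10 on all 6 heart arrays. Myl7, its atrial counterpart, was 11.88 or more on the P1 and E17.5 arrays and 11.27 on adult replicate 2, but 5.42 on adult replicate 1. All 6 atrial markers were lower on adult replicate 1 than on any other heart array, with a mean level of 6.14 against 10.57 on adult replicate 2, so an array labelled whole heart had almost no atrial signal. No atrial marker was called. Counts of calls without this array are given for all genes, the fatty acid oxidation list, the microRNA rows and the named genes as a set. They are not given for the other lists.

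Of the genes tested, 2533 passed the threshold on the P1 difference, and 667 of them lay between E17.5 and adult at P1. The other genes were 880 peaks (4.42% of all genes tested) and 986 dips (4.95%), 9.37% together. For comparison, P1 lay on the same side of both other stages in 52.4% of all genes, called or not, and both single differences share the P1 arrays. Most calls were small against the nearer stage: the smaller of the single differences was under 0.5 in 597 peaks and 618 dips, and at least 1 in 28 peaks and 65 dips. The nearer stage at P1 was E17.5 in 734 peaks and in 826 dips. Both P1 arrays lay beyond all 4 other heart arrays in 632 peaks and 611 dips. Among all genes, 7.93% had both P1 arrays above and 7.02% below the other 4. The stricter call left 96 peaks (0.482%) and 76 dips (0.382%), 0.863% together.

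**Figure D1:**
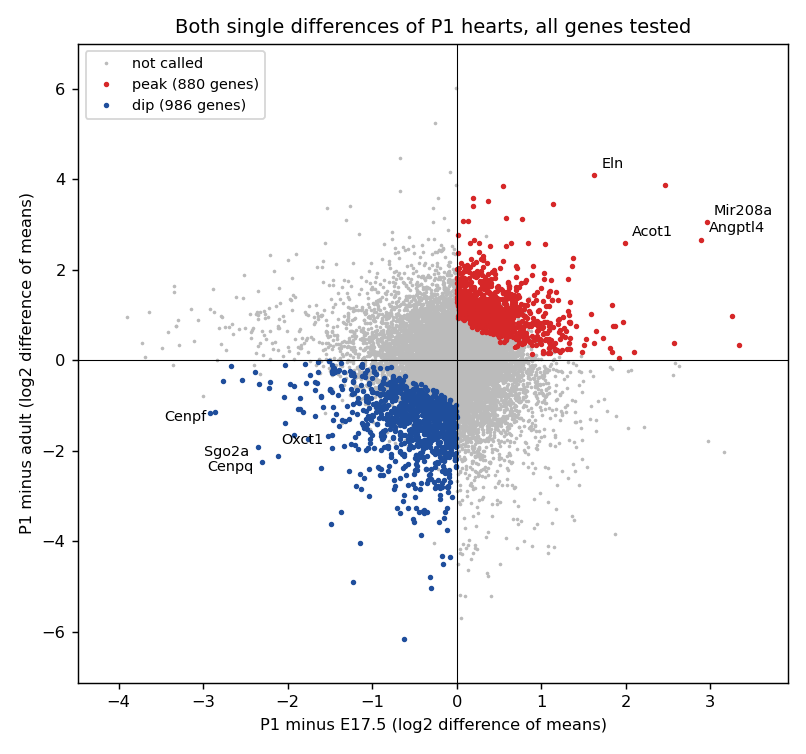
P1 minus E17.5 (horizontal) against P1 minus adult (vertical), as log2 differences of group means, for each of 19920 genes tested. The 880 peaks (red) fill the upper right of the plot and the 986 dips (blue) the lower left, and most called genes lie farther from adult than from E17.5.

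The arrays of the P1 pair differed in how far they went. In peaks, P1 replicate 1 lay a median of 0.64 above the midpoint of the other stages and replicate 2 a median of 0.87. In dips the medians were -0.73 for replicate 1 and -1.01 for replicate 2, and replicate 2 was the farther one in 659 peaks and 631 dips. Kept calls came to 221 peaks (1.11% of all genes) and 253 dips (1.27%). Without P1 replicate 2 there were 432 peaks (2.17%) and 594 dips (2.98%), and without P1 replicate 1 there were 1375 peaks (6.9%) and 1851 dips (9.29%). Leaving out an E17.5 array left between 500 and 581 peaks and between 584 and 660 dips. Leaving out adult replicate 1, the one with low atrial markers, left 698 peaks and 777 dips.

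**Figure D2:**
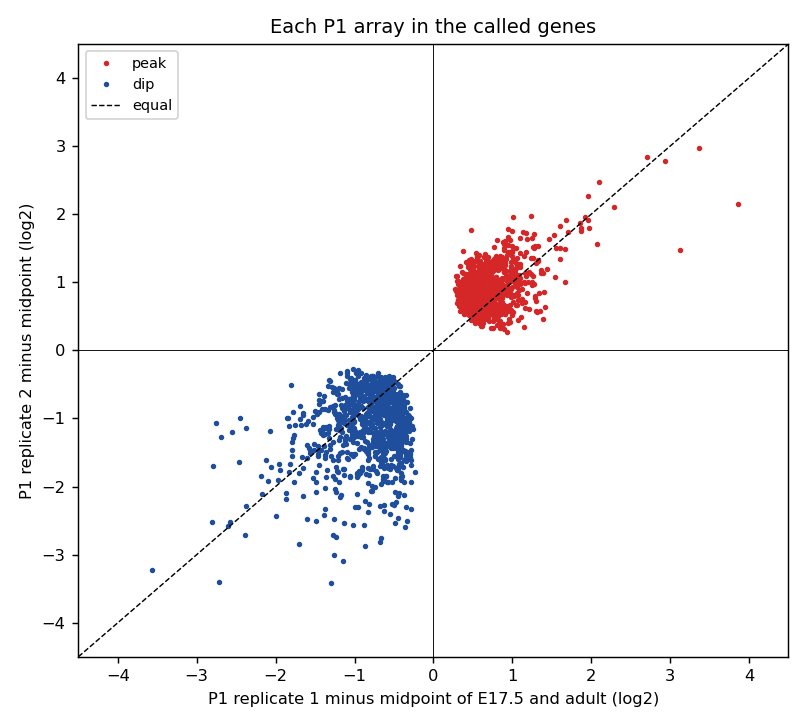
Distance of P1 replicate 1 (horizontal) and P1 replicate 2 (vertical) from the midpoint of E17.5 and adult hearts, in log2 units, for the 880 peaks (red) and 986 dips (blue). The dashed line marks equal distance, and 659 peaks and 631 dips lie on the side where replicate 2 went farther.

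Counts of peaks and dips in each list below are to be read beside 4.42% and 4.95% of all genes tested. Of the 18 process lists, fatty acid oxidation and ketone genes had the most peaks at P1. Of 29 measured genes of fatty acid oxidation and ketone use, 14 were peaks and 2 were dips, 10 and 2 of them kept. The median P1 difference of the list was 0.63, against -0.02 for all genes. Without P1 replicate 1 the list had 12 peaks, without P1 replicate 2 it had 14, and without adult replicate 1 it had 12. Against E17.5 alone 15 members were higher, where 2.08% of all genes were, and against adult alone 10 were higher, where 14.7% of all genes were.

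Angptl4 (transcript cluster 10450038), a secreted inhibitor of lipoprotein lipase and a PPAR target, had the largest difference of the list. Its log2 signals were 5.95 and 6.07 in E17.5 hearts, 8.84 and 8.97 in P1 hearts, and 6.17 and 6.32 in adult hearts. The P1 arrays were above the other 4 by a wide margin and the P1 difference was 2.78 ± 0.19 (SE of the fit, n = 2 arrays per stage, adjusted p = 2.01e-05), or 6.86-fold. Acot1, which encodes a cytosolic acyl-CoA thioesterase, had 7.31 and 7.50 at E17.5, 9.21 and 9.59 at P1, and 7.06 and 6.57 in adults. Its P1 difference was 2.29 ± 0.18 (adjusted p = 3.54e-05), and the stages did not overlap. Both genes passed the stricter call and were kept.

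Of the carnitine shuttle, 2 of the 3 genes described here were peaks. Cpt1a (transferase of the outer mitochondrial membrane, the liver-type isoform of the entry step) had 8.46 and 8.24 at E17.5, 10.21 and 10.16 at P1, and 8.98 and 8.95 in adults. P1 was higher than E17.5 by 1.84 (adjusted p = 9.6e-05) and higher than adult by 1.22 (adjusted p = 0.000292). Slc25a20, the carrier that exchanges acylcarnitine across the inner membrane, had 9.80 and 9.72 at E17.5, 10.82 and 10.58 at P1, and 9.31 and 9.45 in adults. Cpt2, the inner-membrane transferase, was not called, since its 8.36 and 8.20 at E17.5, 9.75 and 9.77 at P1, and 10.39 and 10.54 in adults put P1 in the middle.

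Acadvl, the very-long-chain acyl-CoA dehydrogenase of the first β-oxidation step, had 9.61 and 9.39 at E17.5, 10.82 and 10.57 at P1, and 9.44 and 9.31 in adults, a P1 difference of 1.26 ± 0.16 (adjusted p = 0.000762). Hadhb, the thiolase subunit of the trifunctional protein, had 11.40 and 11.33 at E17.5, 12.15 and 11.93 at P1, and 10.79 and 10.96 in adults. Acadm, the medium-chain dehydrogenase, had 11.49 and 11.47 at E17.5, 11.82 and 11.01 at P1, and 12.18 and 12.22 in adults, so its P1 arrays fell on either side of E17.5 and it was not called. Acads, the short-chain dehydrogenase, was not called either, while Acadl, the long-chain one, was a peak. The other peaks, chosen after their values were seen, were Acadl, Hadha, Eci1, Decr1, Etfdh, Acot2, Ucp3 and Mlycd, and Acadl, Decr1, Etfdh and Acot2 among them were not kept. Mlycd, which degrades the Cpt1 inhibitor malonyl-CoA, had 7.07 and 6.79 at E17.5, 8.67 and 9.12 at P1, and 8.21 and 7.88 in adults.

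Several genes of fat use were near the adult level at P1. Pdk4, the kinase that restrains pyruvate entry into mitochondria, had 8.42 and 8.27 at E17.5, 11.09 and 10.74 at P1, and 11.21 and 11.26 in adults. P1 was higher than E17.5 by 2.57 (adjusted p = 3.23e-05) and differed from adult by -0.32 (adjusted p = 0.297), so Pdk4 was not called a peak. Slc27a1, a fatty acid transporter, followed the same course, with 10.05 and 10.10 at P1 and 10.15 and 10.11 in adults. Fabp3, the heart fatty acid binding protein, marks the edge of the rule, with 12.27 and 12.57 in P1 hearts and 12.40 and 12.44 in adult hearts. Its means at both stages were 12.42, P1 fell on the lower side in the fourth decimal, and it was not called. Defb38, a defensin gene near the bottom of the scale, was called a dip with 2.32 and 2.42 at E17.5, 2.42 and 2.32 at P1, and 3.74 and 3.52 in adults, and was lost without P1 replicate 2.

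The dips of the list were Oxct1 and Bdh1, enzymes of ketone use. Oxct1, which encodes the enzyme that activates acetoacetate for use outside the liver, had 10.78 and 10.61 at E17.5, 9.51 and 8.93 at P1, and 11.01 and 10.73 in adults. Both P1 arrays were below all others, the P1 difference was -1.56 ± 0.20 (adjusted p = 0.000705), and 17 of its 19 probe sets were lower at P1 than at both other stages. Bdh1, the hydroxybutyrate dehydrogenase, had 6.19 and 6.25 at E17.5, 5.71 and 6.03 at P1, and 7.65 and 7.23 in adults. Its distance from E17.5 was -0.35 (adjusted p = 0.447), while that from adult was -1.57 (adjusted p = 0.00015). Acat1, the thiolase of the same route, was not called, with P1 arrays at 11.22 and 10.76.

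The promoters of Cpt1a and Acadvl, genes at an earlier and a later step of the route, are shown as RefSeq gives them on GRCm38.p6. They run from 250 bases before to 50 bases after the start. Both genes peaked on both P1 arrays. Both promoters are among the 3 of the list's peaks that held the half-site marked below, so they do not stand for the other peaks. Capitals mark the nuclear receptor half-site AGGTCA, read on either strand (TGACCT on the opposite one).
Cpt1a, chr19:3323051-3323350, + strand: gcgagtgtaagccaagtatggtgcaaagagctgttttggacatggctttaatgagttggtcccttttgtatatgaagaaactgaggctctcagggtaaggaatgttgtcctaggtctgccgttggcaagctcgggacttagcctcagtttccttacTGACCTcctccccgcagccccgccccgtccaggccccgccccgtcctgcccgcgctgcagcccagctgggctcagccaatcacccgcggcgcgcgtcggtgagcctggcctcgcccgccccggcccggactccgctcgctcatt
Acadvl, chr11:70015379-70015678, - strand: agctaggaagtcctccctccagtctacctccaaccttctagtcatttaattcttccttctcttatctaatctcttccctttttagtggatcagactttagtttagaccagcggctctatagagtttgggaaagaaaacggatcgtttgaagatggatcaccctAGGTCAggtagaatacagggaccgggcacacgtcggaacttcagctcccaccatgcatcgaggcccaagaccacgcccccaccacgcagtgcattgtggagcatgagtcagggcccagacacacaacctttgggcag
Of the 14 peak genes of the list 12 had a promoter in the table, and 3 of these (Ucp3, Acadvl and Cpt1a) held the half-site, where 16.3% of 32851 promoters did. Such a match describes these letters only.

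Lipid storage and synthesis genes gave fewer calls. Of 23 lipid droplet genes and PPAR and ERR factors, 3 were peaks, 1 of them kept. Cidea, a lipid droplet protein, had 6.71 and 6.53 at E17.5, 7.91 and 8.02 at P1, and 6.53 and 6.85 in adults, with a P1 difference of 1.31 ± 0.19 (adjusted p = 0.00126). Ppargc1b, a coactivator of ERR and PPAR factors, had 7.62 and 7.57 at E17.5, 8.74 and 9.27 at P1, and 8.54 and 7.96 in adults. It passed the stricter call but was lost without P1 replicate 2. Of 17 genes of fatty acid synthesis and desaturation, a list chosen after values were seen, 4 were peaks and none was a dip, and 3 peaks were kept. Acacb, which makes the malonyl-CoA that inhibits Cpt1, had 8.31 and 8.03 at E17.5, 9.96 and 10.08 at P1, and 9.49 and 9.05 in adults. Scd4, a stearoyl-CoA desaturase of the heart, had 5.36 and 5.53 at E17.5, 8.55 and 8.85 at P1, and 8.09 and 7.38 in adults. Fasn, the fatty acid synthase, had 8.12 and 8.03 at E17.5, 8.92 and 9.47 at P1, and 7.44 and 7.42 in adults. Among these 3 genes, P1 arrays were the highest of the hearts in every case.

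Fat tissue beside the heart was checked with its markers. Ucp1, the defining gene of brown fat, was 4.59 and 4.45 in P1 hearts, against 4.61 to 5.21 on the other 4 heart arrays. Of 5 brown fat markers Cidea alone was called, and of 7 adipocyte markers Fabp4 alone, which endothelium also expresses and which was lost without P1 replicate 1. Adipoq, the adipocyte hormone, was 3.52 and 3.53 in P1 hearts, against 3.38 to 4.93 on the other 4. The mean level of the brown fat list was 5.54 on both P1 arrays, against 5.34 to 5.44 on the others. That mean includes Cidea itself, so it restates the Cidea peak in part. The median P1 difference of the list was -0.12. The part of brown fat in the Cidea difference was not tested.

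**Figure D3:**
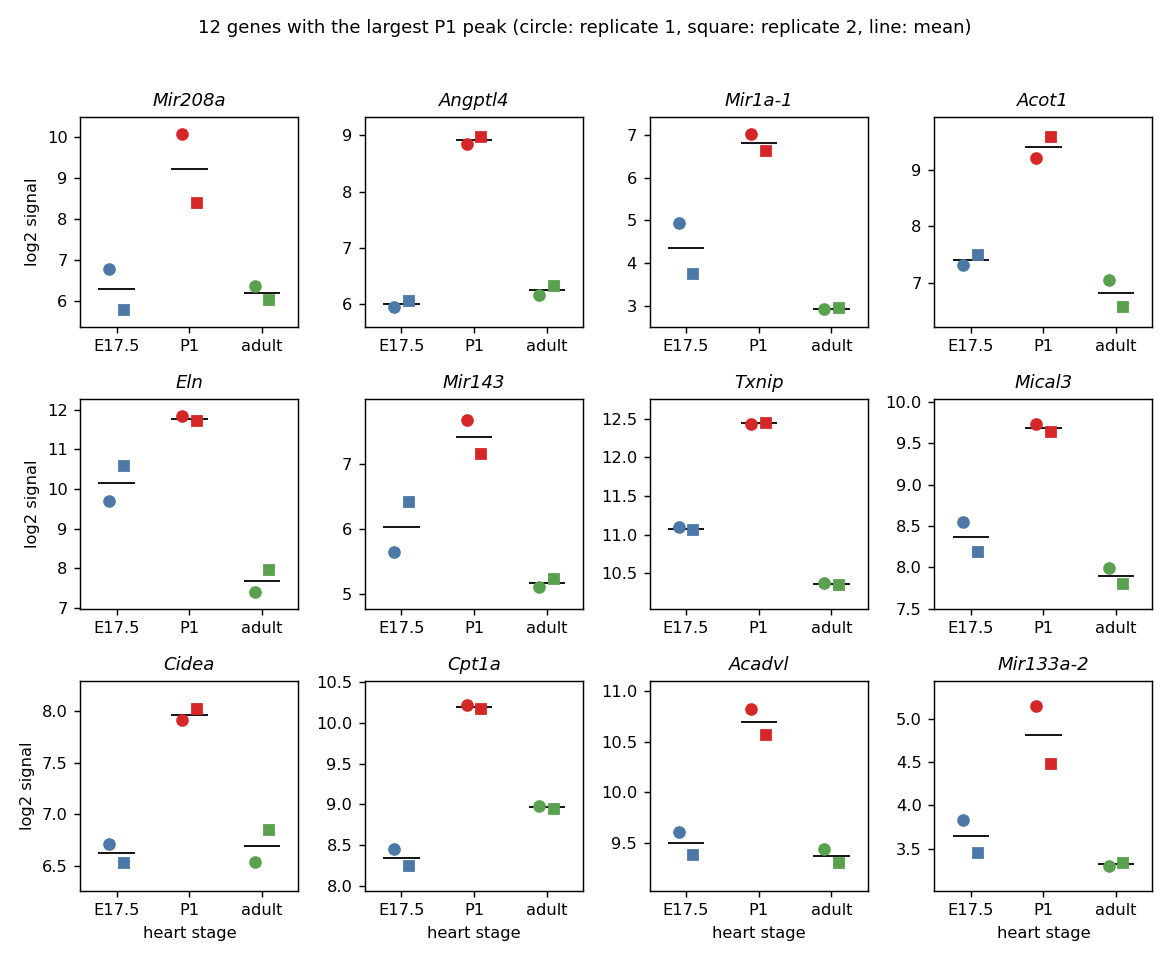
Log2 signal on each array (circle, replicate 1; square, replicate 2; line, mean of 2) at E17.5, P1 and in adults for the 12 peaks whose smaller single difference was largest. Both P1 arrays sit above the 4 others in every panel, and Mir208a shows the widest gap between the P1 arrays, 10.08 and 8.38.

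Rows named for microRNA genes made up 4 of the 12 largest peaks. MicroRNAs are cut from hairpin precursors and silence messenger RNAs that match their seed, bases 2 to 8. The array measured cDNA made from total RNA at these loci, so hairpin, primary transcript and unspliced host RNA cannot be told apart and mature microRNA was not measured separately. The mature sequences below, from RefSeq on GRCm38.p6, belong to the heart loci Mir208a and Mir1a-1, the largest microRNA peaks, and to the Mir23a and Mir27a cluster, with the seed in capitals. For Mir1a-1 the RefSeq source used here held a single arm, so the opposite arm and its seed are not shown.
miR-208a-3p, chr14:54949072-54949093, - strand: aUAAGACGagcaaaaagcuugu
miR-208a-5p, chr14:54949107-54949128, - strand: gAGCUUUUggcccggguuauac
miR-1a-1-5p, chr2:180389057-180389079, + strand: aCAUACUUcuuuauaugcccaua
miR-23a-3p, chr8:84208563-84208583, + strand: aUCACAUUgccagggauuucc
miR-23a-5p, chr8:84208527-84208548, + strand: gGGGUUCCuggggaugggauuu
miR-27a-3p, chr8:84208727-84208747, + strand: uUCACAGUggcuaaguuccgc
miR-27a-5p, chr8:84208685-84208706, + strand: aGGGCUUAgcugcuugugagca
No seed occurs more than once among these sequences.

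Mir208a lies in an intron of Myh6, the adult-type myosin heavy chain. The Mir208a row had 6.77 and 5.77 at E17.5, 10.08 and 8.38 at P1, and 6.36 and 6.0 in adults, a P1 difference of 3.01 ± 0.38 (adjusted p = 0.000723). The P1 arrays were far apart and both were still above all other hearts. Myh6 had 12.33 and 11.95 at E17.5, 13.22 and 12.80 at P1, and 12.71 and 12.51 in adults. Its P1 difference was 0.64 ± 0.18 (adjusted p = 0.0387), a call lost without P1 replicate 1. Mir499, in the related gene Myh7b, had 3.67 and 3.86 at E17.5, 4.95 and 4.15 at P1, and 3.63 and 4.07 in adults, a peak lost without P1 replicate 1. Signals of the Mir499 row were low throughout, with 3.82 and 3.48 in ES cells. Myh7b itself was a kept peak, with 8.74 and 8.16 at E17.5, 9.09 and 8.55 at P1, and 7.16 and 6.69 in adults.

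The muscle pair Mir1a-1 and Mir133a-2, made from a shared primary transcript, rose together. Mir1a-1 had 4.94 and 3.75 at E17.5, 7.01 and 6.62 at P1, and 2.93 and 2.97 in adults, a P1 difference of 3.17 ± 0.27 (adjusted p = 4.87e-05). Mir133a-2 had 3.83 and 3.45 at E17.5, 5.15 and 4.48 at P1, and 3.30 and 3.33 in adults, and also passed the stricter call. Adult signals of both rows were near the bottom of the scale. ES cells gave 2.62 and 2.51 for Mir1a-1, and 3.26 and 3.13 for Mir133a-2. Mir143, a smooth muscle microRNA gene, had 5.65 and 6.41 at E17.5, 7.67 and 7.16 at P1, and 5.10 and 5.23 in adults. Its neighbour Mir145a had 6.44 and 6.44 at E17.5, 7.85 and 7.70 at P1, and 7.14 and 6.79 in adults, a call lost without P1 replicate 2. All 4 rows were highest on the P1 arrays.

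Mir23a had 5.49 and 5.92 at E17.5, 6.80 and 6.79 at P1, and 5.40 and 5.18 in adults. Mir27a, from the same cluster, had 6.64 and 6.39 at E17.5, 7.36 and 7.13 at P1, and 6.33 and 5.98 in adults. Mir378a, in an intron of Ppargc1b, had 5.16 and 5.19 at E17.5, 6.29 and 6.26 at P1, and 4.64 and 4.84 in adults, and its host was a peak as described above. In all 3 rows both P1 arrays were above the other hearts, and all were kept. Among all 291 microRNA rows tested, a list chosen after values were seen, 22 were peaks and 6 were dips, 10 and 1 of them kept, and 7 peaks passed the stricter call. The median P1 difference over these rows was 0.05. Without adult replicate 1 there were 18 peaks and 6 dips, and without adult replicate 2 there were 21 and 2.

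Extracellular matrix genes were called through their distance from the adult. Of 32 measured, 11 were peaks and none was a dip, and 6 were kept. The list's median was 0.08 for P1 minus E17.5 and 1.04 for P1 minus adult, where all genes had 0.01 and -0.04. Against E17.5 alone 3 members were higher, where 2.08% of all genes were. Eln, which encodes the elastic fibre protein elastin, had 9.70 and 10.58 at E17.5, 11.84 and 11.70 at P1, and 7.40 and 7.96 in adults. Its P1 difference was 2.86 ± 0.23 (adjusted p = 3.54e-05), all 39 of its probe sets were higher at P1 than at both other stages, and it alone passed the stricter call. Col4a1, a chain of basement membrane collagen, had 9.30 and 9.10 at E17.5, 9.78 and 10.01 at P1, and 7.91 and 7.70 in adults. Its partner chain Col4a2 had 9.28 and 9.14 at E17.5, 9.77 and 9.93 at P1, and 7.32 and 7.22 in adults. The distances of P1 from E17.5 were 0.70 (adjusted p = 0.107) for Col4a1 and 0.64 (adjusted p = 0.112) for Col4a2. Col1a1, the main fibrillar collagen, had 11.14 and 11.43 at E17.5, 11.36 and 11.60 at P1, and 8.07 and 8.07 in adults, and was lost without P1 replicate 2.

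Markers of smooth muscle and pericytes, cells in which Eln, Mir143 and Mir145a are active, were checked beside these peaks. Of 9 such markers 2 were peaks, Tagln and Cspg4, neither kept, and against E17.5 alone Pdgfrb was higher and Cnn1 lower. The mean level of the list was 8.98 and 8.91 in P1 hearts, against 8.47 to 8.59 on the other 4 arrays. Their part in these peaks was not tested.

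Txnip, a glucose-responsive inhibitor of thioredoxin and of glucose uptake, was among the largest peaks. It had 11.10 and 11.05 at E17.5, 12.43 and 12.45 at P1, and 10.38 and 10.34 in adults, and the P1 difference was 1.72 ± 0.23 (adjusted p = 0.000944). Mical3, an actin-oxidizing monooxygenase, had 8.55 and 8.18 at E17.5, 9.74 and 9.64 at P1, and 7.99 and 7.80 in adults. On a second transcript cluster with this symbol the E17.5 mean was 6.71, the P1 mean 7.73 and the adult mean 7.48, so P1 was again highest but closer to the adult. Txnip and Mical3 were both kept.

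Respiratory chain, contractile and channel genes held peaks as well, to be read beside 4.42% of all genes. Of 30 citrate cycle and respiratory chain genes 5 were peaks, 3 kept, and no member was higher than E17.5 on its own test. Cox5a, a subunit of cytochrome oxidase, had 10.86 and 10.73 at E17.5, 11.30 and 11.48 at P1, and 10.14 and 10.32 in adults. Both P1 arrays were above all other hearts in 13 members of this list, where they were in 7.93% of all genes. The list median was 0.12. Of 30 sarcomere genes 3 were peaks and 1 was a dip. Myom2, which encodes the M-band protein myomesin 2, had 9.69 and 9.32 at E17.5, 11.50 and 11.27 at P1, and 10.81 and 10.44 in adults, and was the only kept one. Myh7, the fetal-type myosin heavy chain, had 12.97 and 12.93 at E17.5, 12.76 and 12.64 at P1, and 8.0 and 6.92 in adults, and was not called because P1 lay between the others.

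Of 23 calcium handling and ion channel genes 4 were peaks and 2 were dips, 1 of each kept. Cacna1g, a T-type calcium channel, had 6.61 and 6.64 at E17.5, 8.09 and 8.36 at P1, and 7.40 and 7.01 in adults, and was kept. Its relative Cacna1h had 7.18 and 7.14 at E17.5, 7.81 and 8.22 at P1, and 6.72 and 7.13 in adults, and passed the stricter call, but was lost without P1 replicate 2. Kcnq1, the slow delayed rectifier channel, had 8.51 and 8.17 at E17.5, 9.16 and 9.44 at P1, and 8.79 and 8.48 in adults and was lost likewise. The dips were Kcnd2, a potassium channel subunit, and Trdn, which encodes triadin of the calcium release complex. Kcnd2 had 5.85 and 5.70 at E17.5, 5.81 and 5.32 at P1, and 8.90 and 9.40 in adults, and was lost without P1 replicate 2. Trdn, the kept dip, had 7.40 and 7.52 at E17.5, 7.39 and 6.53 at P1, and 10.47 and 10.61 in adults. Its distance from E17.5 was -0.50 (adjusted p = 0.541) on the transcript cluster used. On most other clusters with this symbol the adult mean was highest and the P1 mean lowest. Cluster 10362434, for example, had means of 7.29 (P1), 8.46 (E17.5) and 11.49 (adult). Cluster 10362458 was unlike most, since its adult mean of 5.41 lay below the E17.5 mean of 5.82, with a P1 mean of 3.91. On cluster 10362454 the P1 mean of 2.52 was above the E17.5 mean of 2.29. The fourth peak, Gja5, is a connexin of atria and conduction fibres and was lost without P1 replicate 2. Adult replicate 1, the array with low atrial markers, is part of the Gja5 comparison.

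Cholesterol synthesis gave 5 peaks and no dip among 16 genes, 3 kept. Dhcr7, which makes cholesterol in the last step of one branch, had 6.66 and 6.67 at E17.5, 7.34 and 7.99 at P1, and 6.40 and 5.76 in adults. Its distance from E17.5 was 1.00, which did not pass (adjusted p = 0.0527). For Cyp51, Msmo1 and Sqle the distances from E17.5 were 0.32, 0.09 and 0.03, so that these peaks stood on the adult side, and Sqle was lost without P1 replicate 2.

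The largest dips included Cenpq, Sgo2a and Rfc4. Cenpq, a kinetochore subunit, had 6.88 and 6.28 at E17.5, 4.84 and 3.70 at P1, and 6.76 and 6.29 in adults, a P1 difference of -2.28 ± 0.29 (adjusted p = 0.000751). Sgo2a, the shugoshin that guards centromeric cohesion, had 7.75 and 7.51 at E17.5, 6.15 and 4.41 at P1, and 7.24 and 7.15 in adults. Rfc4, a subunit of the clamp loader of DNA replication, had 8.71 and 8.82 at E17.5, 6.95 and 6.51 at P1, and 8.08 and 8.14 in adults. All 3 were lowest on both P1 arrays, passed the stricter call and were kept.

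Kpna2, a nuclear import receptor of dividing cells, had 10.35 and 10.19 at E17.5, 8.65 and 8.05 at P1, and 10.00 and 9.98 in adults. The P1 difference was -1.78 ± 0.18 (adjusted p = 0.00014), and 3 transcript clusters with this symbol had P1 means of 8.35, 8.11 and 7.94, below both other stages in each. Near-identical copies in the genome could share that signal. Hmgn5, Vamp7 and Pnpt1, a nucleosome binding protein, a vesicle fusion protein and a mitochondrial RNA enzyme, were kept as well, though P1 replicate 2 was lower than replicate 1 by 1.94, 1.51 and 1.54. Cops2, of the COP9 signalosome, and Kif5b, a kinesin motor, rested on P1 replicate 2. Cops2 had 9.58 and 9.44 at E17.5, 8.82 and 6.69 at P1, and 9.46 and 9.51 in adults, and both genes were lost without that array.

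**Figure D4:**
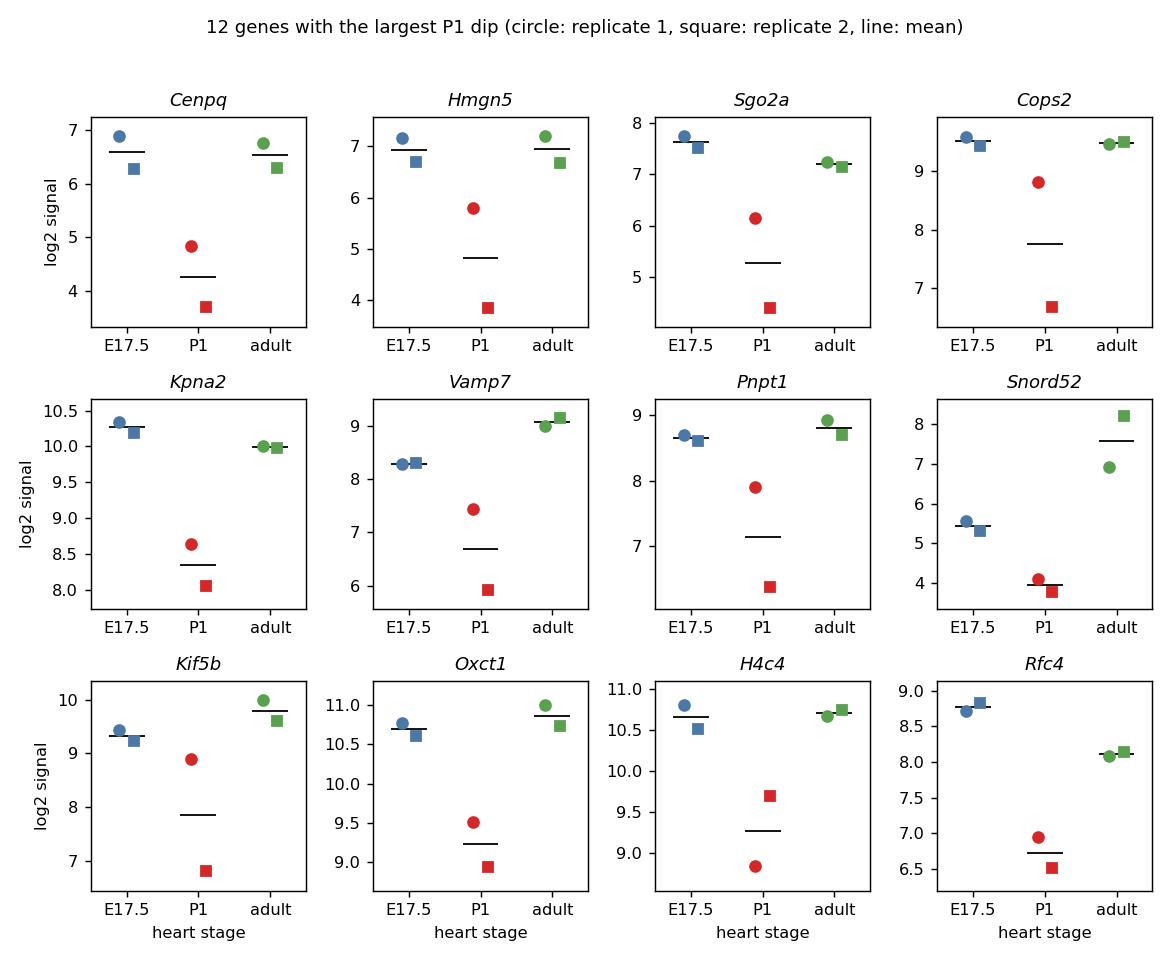
Log2 signal on each array (circle, replicate 1; square, replicate 2; line, mean of 2) at E17.5, P1 and in adults for the 12 dips whose smaller single difference was largest. In Cops2 and Kif5b P1 replicate 1 is close to the other stages and replicate 2 far below, while Kpna2, Snord52 and Rfc4 are low on both P1 arrays.

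The mitosis list as a whole did not dip below the adult. All 27 measured members were lower at P1 than at E17.5, where 3.05% of all genes were, and 14 were higher at P1 than in adults, where 14.7% were. Differences from E17.5 ran from -3.90 to -1.60. Of the 27 members 3 were dips, where 4.95% of all genes were. These were Cenpf, Ndc80 and Nusap1, and the call of Cenpf was not kept. Nusap1, a spindle protein, had 7.85 and 7.82 at E17.5, 5.56 and 5.01 at P1, and 5.86 and 5.61 in adults. Mki67, the Ki-67 proliferation antigen, had 9.31 and 9.06 at E17.5, 7.22 and 5.99 at P1, and 5.96 and 5.89 in adults. It was not called because its P1 mean lay above the adult mean. That distance was 0.68 (adjusted p = 0.1165), and P1 replicate 2 was close to the adult arrays. DNA replication genes went the way of the mitosis list: 21 of 25 were lower than E17.5 and 16 were higher than adult. Among them 3 were dips (Pcna, Pola1 and Ccne2, with Ccne2 kept).

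Glycolysis and hypoxia genes gave 1 peak and 4 dips among 29, and 3 dips were kept. Pgam1, the phosphoglycerate mutase of glycolysis, had 10.41 and 10.53 at E17.5, 8.60 and 9.14 at P1, and 9.74 and 9.63 in adults. P4ha1, a collagen prolyl hydroxylase subunit induced by hypoxia, had 8.88 and 8.78 at E17.5, 7.48 and 6.98 at P1, and 8.06 and 7.97 in adults. Both passed the stricter call and were lowest on the P1 arrays. Egln3, an oxygen-sensing prolyl hydroxylase, had 8.27 and 8.46 at E17.5, 7.41 and 8.29 at P1, and 10.65 and 10.54 in adults, and its distance from E17.5 of -0.51 did not pass (adjusted p = 0.453). Bnip3, a hypoxia-induced receptor for removal of mitochondria, had 9.94 and 10.08 at E17.5, 9.0 and 9.26 at P1, and 10.90 and 10.83 in adults, with both P1 arrays lowest. It was not kept. The median of the list was -0.58 for P1 minus E17.5 and 0.11 for P1 minus adult. Lower than E17.5 were 7 members, where 3.05% of all genes were.

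Bnip3l, the close relative of Bnip3, was 1 of 2 dips among 16 autophagy and muscle breakdown genes. It had 10.67 and 11.14 at E17.5, 9.95 and 9.80 at P1, and 11.67 and 11.55 in adults, a P1 difference of -1.38 ± 0.16 (adjusted p = 0.000351), and was kept. Bnip3l is also active in the red cell lineage, and of 9 red cell markers 1 was a dip and none was kept. Their mean level was 6.66 and 7.44 at E17.5, 5.50 and 5.65 at P1, and 5.69 and 6.18 in adults. Slc4a1, the anion exchanger of red cells, was that dip, and Alas2, the haem synthesis gene of red cells, had 10.49 and 11.61 at E17.5, 7.46 and 8.62 at P1, and 8.58 and 9.11 in adults (adjusted p = 0.0565). Their part in the Bnip3l dip was not tested.

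Rows of small nucleolar RNAs held 26 dips. These RNAs guide chemical modification of ribosomal RNA and mostly come from introns of genes for the translation machinery. Of 51 rows, a list chosen after values were seen, these were the only calls and 16 of them were kept. The median P1 difference was -0.68, with -0.45 against E17.5 and -0.64 against adult. The list's mean level was 6.61 and 6.34 at E17.5, 5.92 and 6.16 at P1, and 6.84 and 7.18 in adults. Snord52 had 5.56 and 5.30 at E17.5, 4.11 and 3.78 at P1, and 6.93 and 8.20 in adults, a P1 difference of -2.55 ± 0.28 (adjusted p = 0.000271). Snord14e had 7.97 and 7.64 at E17.5, 6.43 and 6.52 at P1, and 8.55 and 8.20 in adults. Snord47 and Snora33 passed the stricter call as well. In Snora52, Snord35a, Snord49b, Snord57 and Snord104 it was P1 replicate 1 that was low, and replicate 2 was near E17.5: Snord104 had 8.12 and 8.09 at E17.5, 6.98 and 8.28 at P1, and 9.23 and 9.73 in adults. Among these 5, Snora52, Snord57 and Snord104 were lost without P1 replicate 1. Without P1 replicate 1 there were 20 dips and 3 peaks, and without P1 replicate 2 there were 22 dips and no peak.

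**Figure D5:**
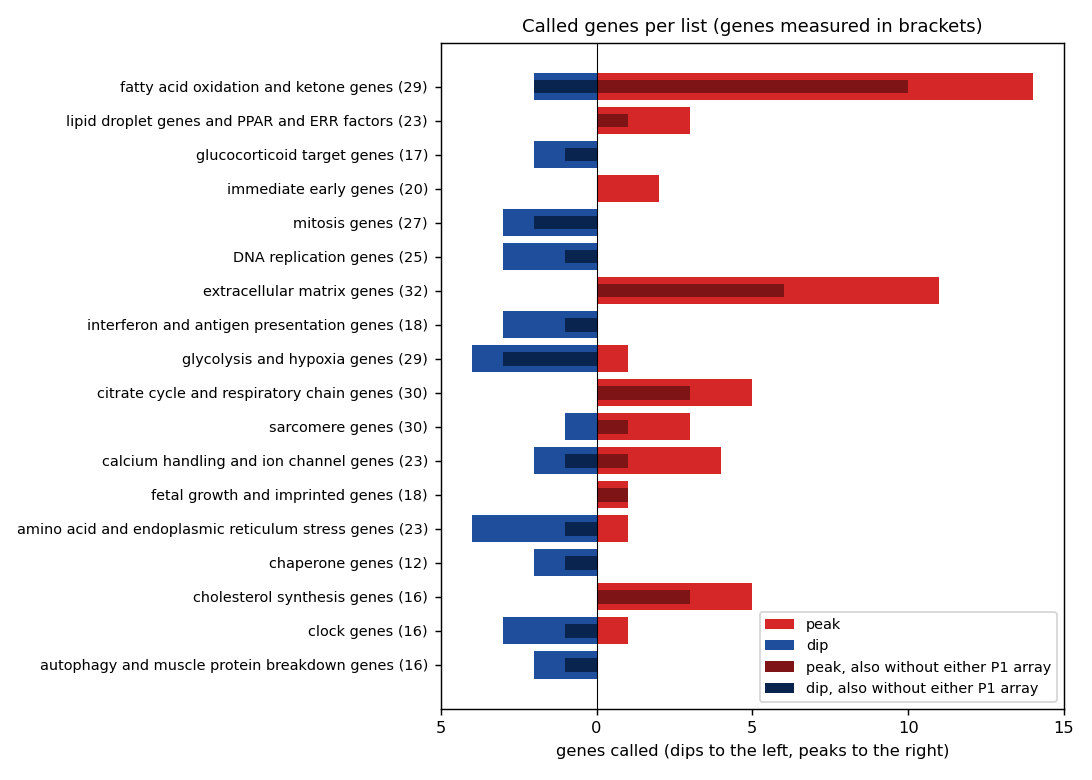
Number of called genes in each of 18 lists (measured genes in brackets), with peaks as bars to the right and dips to the left. Dark inner bars count the calls also made without either P1 array, and fatty acid oxidation and ketone genes have the most peaks, 14 with 10 kept.

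Calls in the immune and stress lists, to be read beside 4.42% peaks and 4.95% dips of all genes, were mostly set by the adult. Of 18 interferon and antigen presentation genes 3 were dips and 1 was kept, H2-Eb1, a class II antigen-presenting chain, with 5.90 and 5.95 at E17.5, 5.82 and 5.85 at P1, and 8.30 and 8.40 in adults. Of 12 macrophage markers 3 were dips, 1 of them kept, and their mean level was 6.48 and 6.51 at E17.5, 6.48 and 6.57 at P1, and 7.90 and 8.20 in adults. Of 17 glucocorticoid targets 2 were dips. Zbtb16, a steroid-induced transcription factor, had 7.48 and 7.40 at E17.5, 7.17 and 6.91 at P1, and 8.99 and 9.36 in adults, and was kept. Fkbp5, the classic target, had 7.99 and 7.67 at E17.5, 7.23 and 7.33 at P1, and 6.08 and 6.87 in adults, and was not called. Of 20 immediate early genes 2 were peaks, Fos and Ier2, both lost without P1 replicate 2. Nppa and Nppb, the natriuretic peptide genes, were not called, and the P1 arrays of Nppb were 7.44 and 8.84.

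Of 18 fetal growth and imprinted genes 1 was a peak. Igf1r, the receptor for insulin-like growth factors, had 8.56 and 8.33 at E17.5, 9.02 and 9.02 at P1, and 7.69 and 7.74 in adults, and was kept. Its ligand gene Igf2 was not called, with 11.59 and 11.76 at E17.5, 11.65 and 12.05 at P1, and 9.67 and 11.45 in adults. Over this list 13 members were higher at P1 than in adults, where 14.7% of all genes were. Lower than at E17.5 were 3 members, where 3.05% of all genes were.

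Markers of other tissues were searched for material carried along at dissection. Of 10 lung epithelium markers 2 were peaks, Sftpa1 and Sftpc, neither kept, and Sftpc was 4.54 and 5.21 in P1 hearts, against 3.99 to 4.42 on the other 4. Of 6 cartilage markers Acan, a matrix proteoglycan, was a kept peak at 6.06 and 5.95 in P1 hearts, against 4.68 to 5.25 on the others. Col2a1, the defining cartilage collagen, was not called, at 6.65 and 6.88 in P1 hearts against 6.09 to 6.90. Of 4 platelet markers 2 were dips, of which Ppbp had 4.94 and 5.36 at E17.5, 4.35 and 4.69 at P1, and 9.62 and 11.73 in adults. Of 7 liver markers Alb was a dip that was not kept. The lists of atrial muscle, endothelium, epicardium, nerve and Schwann cells, granulocytes, T cells and thymus, B cells, mast cells and skeletal muscle had no called member. Irx4, a ventricular transcription factor, was the 1 peak among 5 ventricular markers, and Col1a1 was the 1 peak among 9 fibroblast markers. Both were lost without P1 replicate 2.

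The exon-level values of the same arrays showed how evenly a call ran along a gene. Among called genes with at least 4 probe sets, over 50% of the probe sets lay on the called side of both other stages in 671 of 759 peaks and 691 of 820 dips. Among all genes 13.8% met this upward and 13.8% downward. These probe sets are parts of the same measurement and not independent of the calls. The cultured samples, which the rule did not use, were beyond P1 in part of the genes. In 577 peaks and 575 dips no culture mean lay beyond the P1 mean, and in 129 peaks and 199 dips all 3 did. The cardiac body mean was on the P1 side of both other hearts in 334 peaks and 512 dips. These culture counts were not made over all genes, so they cannot be read as particular to the called genes. Angptl4 averaged 8.91 in P1 hearts, against 6.25 in cardiac bodies. Oxct1 averaged 9.22 in P1 hearts, against 9.25 in cardiac bodies.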

How the data were processed

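RNA of whole hearts at E17.5, P1 and in adults, and of 3 stages of cultured cells, was extracted with TRIzol, depleted of ribosomal RNA, amplified to cDNA, biotinylated and hybridized to Affymetrix mouse gene arrays, per the labels' protocols. The authors deposited log2 signals made with RMA in Affymetrix Power Tools, per the submitters' processing notes, with versions not given in the sources used here. Gene-level values of 35556 transcript clusters were used as deposited, with no further normalization. Platform annotation gave 1 symbol for 21789 clusters, several for 1621 and none for 12146, and only the first kind was tested. For 1015 genes with more than 1 cluster, the one with the highest mean stood for the gene, which left 19920 genes.

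Group means of all 12 arrays entered lmFit and eBayes of limma 3.58.1 under R 4.3.3 (6 residual and 6.18 prior degrees of freedom), so that the heart comparison shares its estimate of spread with the cultures. P-values were adjusted over all genes with the Benjamini-Hochberg method. The number of arrays limits the precision. Named genes were the 12 largest peaks and dips by the smaller single difference with both P1 arrays outside the other hearts, up to 4 called members per list, the genes at the edge of the rule, the 6 genes with the widest gap between the P1 arrays each way, and a set of known heart genes. Of these, Stag2 and Gpnmb are given for the gap. List members named beyond that were chosen after their values were seen. The stage comparison, the members and the 18 process and 20 marker lists were chosen with earlier results of these data known. Of 437 process and 172 marker entries 404 and 160 were measured. The microRNA, small nucleolar RNA, histone and fatty acid synthesis lists were chosen after the data were seen. Exon-level values of 203574 probe sets of tested genes were used per gene, without 1847 probe sets identical to their gene. MicroRNA and promoter sequences are from RefSeq on GRCm38.p6, where 262 of 291 microRNA rows matched. The coordinates of the array's own annotation are not used here.

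The labels do not say whether equal replicate numbers pair the samples, and the fit used no pairing. Over 15 pairs of groups the deviations of arrays with the same number correlated at -0.18 to 0.29. The highest, 0.29, was for P1 and E17.5, with -0.06 for P1 and adult, and -0.04 for E17.5 and adult. Such correlations cannot settle whether samples were paired. Alternatives were the replicate block, the heart arrays alone, a filter on level, quantile normalization, an intensity trend, array weights, the mean of clusters, the exon-level median, and each array left out. Files were read with data.table (version 1.17.8), and matplotlib 3.10.9, numpy 2.4.6 and pandas 2.3.3 under Python 3.11.15 drew the figures.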

Additional observations from a re-analysis of the deposited data

How the results depend on the processing

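The peak and dip counts, 880 and 986 as reported, fell to 501 and 580 with the 6 heart arrays alone, to 296 and 422 with array weights, which gave each P1 array 0.473 and each E17.5 array 1.297, and to 481 and 543 with the median of exon-level probe sets, where 15084 genes could be tested. They were within 1.5 times of the reported counts under the replicate block (800 and 944), the level filter (989 and 976), quantile normalization (1139 and 910), the intensity trend and the mean of clusters. The stricter counts, 96 peaks and 76 dips, came to 49 and 30 with the hearts alone, 40 and 32 with array weights, 40 and 36 at exon level, 156 and 80 after quantile normalization, 127 and 114 with the level filter and 78 and 68 with the replicate block. Leaving out 1 of the 12 arrays at a time gave 432 to 1375 peaks, 584 to 1851 dips, 19 to 325 stricter peaks and 20 to 841 stricter dips. The highest of each of these came without P1 replicate 1, and the lowest without P1 replicate 2 (peaks) or without an E17.5 array (the rest). Of the 880 peaks 737 kept the call without P1 replicate 1 and 283 without P1 replicate 2, and of the 986 dips 728 and 395. Gpnmb and Nipbl, not called, changed sign: the P1 difference of Gpnmb was 1.62 without P1 replicate 1 and -1.02 without P1 replicate 2, and that of Nipbl was -1.54 and 0.89. Of 85 called genes named in the text's rule, 83 kept their call under the replicate block, 59 under array weights, 75 without P1 replicate 1, 56 without P1 replicate 2, 77 without adult replicate 1, and 55 of 72 at exon level. The exon-level table gave no value for the microRNA and small nucleolar RNA rows. The cause of these shifts was not tested. With 2 arrays per stage, a difference confined to 1 P1 array cannot be separated from the stage, and signals were not tested against background.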

Other observations

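Rows of clustered, replication-dependent histone genes, a list chosen after values were seen, held dips and no peak. Of 30 rows 8 were dips, where 4.95% of all genes were, 2 of them kept, and 4 dips passed the stricter call. Lower than at E17.5 were 13 rows, where 3.05% of all genes were. H4c4 had 10.80 and 10.51 at E17.5, 8.83 and 9.69 at P1, and 10.67 and 10.74 in adults, a P1 difference of -1.42 ± 0.25 (adjusted p = 0.0039). H3c4 had 5.65 and 5.70 at E17.5, 4.87 and 4.92 at P1, and 5.30 and 5.52 in adults, and these 2 were the kept ones. Near-identical histone copies may share signal. The mean level of the rows was 6.85 and 6.80 at E17.5, 5.92 and 6.30 at P1, and 6.23 and 6.31 in adults, so the mean was lowest on P1 replicate 1, and that of P1 replicate 2 lay between the adult arrays.

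Amino acid and endoplasmic reticulum stress genes held 1 peak and 4 dips among 23. Cth, which makes cysteine from cystathionine, had 4.82 and 4.90 at E17.5, 4.37 and 4.25 at P1, and 6.04 and 5.78 in adults and was the kept dip. Asns and Mthfd2, both targets of the factor ATF4, were dips whose distance from the adult was -0.35 and -0.29. Of 12 chaperone genes 2 were dips. Hspb8, a small heat shock protein of muscle, had 8.75 and 8.52 at E17.5, 7.99 and 8.44 at P1, and 11.06 and 10.81 in adults and was kept. Hsp90aa1 had 11.48 and 11.43 at E17.5, 10.12 and 8.37 at P1, and 9.76 and 9.70 in adults, with P1 replicate 2 alone below the adults, and was lost without it. Of 16 clock genes 1 was a peak (Cry1) and 3 were dips. Bhlhe40, a repressor of the clock, had 6.73 and 6.59 at E17.5, 6.30 and 6.53 at P1, and 7.95 and 8.03 in adults, and was the kept one. The hour at which hearts were taken is not given in the labels.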
